A study of Homo sapiens with 6 samples.

Results

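The transcripts of 8 caspase genes, *CASP1*, *CASP2*, *CASP4*, *CASP6*, *CASP8*, *CASP9*, *CASP10* and *CASP14*, were followed in A2780 cells, an ovarian cancer line, treated with DMSO vehicle or with TH588 (TH-588 in the labels), an inhibitor of MTH1, an enzyme that clears oxidized nucleotides. They were found by name through the Ensembl identifiers of the deposited gene counts, and make up 8 of 58336 counted genes. Other caspases were not analysed here. DMSO was used at 0.1% and TH588 at 6 µM, and RNA was collected at 48 h in 3 separate experiments for each treatment, labelled replicates A, B and C, 6 libraries in all. All 6 libraries come from one established line in culture, without other cell types or an untreated arm.

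Caspases are cysteine proteases that cut their targets after aspartate and are made as inactive precursors. Initiator caspases are switched on when adaptor platforms bring them together. *CASP8* and *CASP10* are recruited to death receptors, *CASP9* to the APAF1 apoptosome once cytochrome c leaves the mitochondria, and *CASP2* to the PIDDosome, a platform of PIDD1 and CRADD. *CASP8*, *CASP10* and *CASP9* then cleave executioner caspases, of which *CASP6* is known for cutting nuclear lamins. *CASP1* and *CASP4* act in inflammasomes and open gasdermin pores, and *CASP14* acts in the cornifying layers of the skin. *CASP1*, *CASP6* and *CASP10* have been described as p53 target genes in other settings. Activation of these enzymes happens by cleavage, so a transcript level is not a measure of caspase activity.

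Sequence around the transcription start differed between members. RefSeq windows from 250 bases before to 50 bases after a start were at hand for 6 of the 8 members (10 windows, GRCh38.p14, the same primary assembly as the counts). Printed here are those of a gene that fell (*CASP2*), 2 genes that rose (*CASP9* and *CASP8*) and a gene at or near 0 in every library (*CASP4*). The printed *CASP8* window is poor in CpG, and which starts were in use was not measured. Each printed window is the one nearest to the gene's start in the counted models. It is written 5′ to 3′ on the strand of the gene and has its CpG dinucleotides in capitals. The RefSeq start lies 20 bases from the counted start for *CASP8*, 136 for *CASP2*, 862 for *CASP4* and 1744 for *CASP9*. The *CASP4* and *CASP9* windows therefore do not contain the counted start.
CASP2, chr7:143288101-143288400, plus strand: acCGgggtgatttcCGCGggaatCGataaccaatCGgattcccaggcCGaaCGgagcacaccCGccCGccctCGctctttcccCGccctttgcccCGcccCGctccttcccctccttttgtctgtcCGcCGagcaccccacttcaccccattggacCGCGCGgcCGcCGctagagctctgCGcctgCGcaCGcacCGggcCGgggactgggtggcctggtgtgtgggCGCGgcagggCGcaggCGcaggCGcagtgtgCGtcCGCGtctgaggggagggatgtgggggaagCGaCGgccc
CASP9, chr1:15524741-15525040, minus strand: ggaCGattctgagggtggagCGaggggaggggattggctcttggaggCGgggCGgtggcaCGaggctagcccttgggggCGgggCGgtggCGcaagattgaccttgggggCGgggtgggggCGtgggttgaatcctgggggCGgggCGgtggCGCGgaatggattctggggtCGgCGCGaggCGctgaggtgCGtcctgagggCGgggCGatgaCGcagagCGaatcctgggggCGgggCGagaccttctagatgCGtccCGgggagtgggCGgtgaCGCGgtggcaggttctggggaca
CASP8, chr2:201233213-201233512, plus strand: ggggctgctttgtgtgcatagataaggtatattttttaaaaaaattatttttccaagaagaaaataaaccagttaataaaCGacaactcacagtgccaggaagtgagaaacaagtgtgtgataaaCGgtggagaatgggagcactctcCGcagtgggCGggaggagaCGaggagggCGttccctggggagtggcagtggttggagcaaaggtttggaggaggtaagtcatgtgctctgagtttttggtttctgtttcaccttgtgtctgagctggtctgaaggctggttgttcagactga
CASP4, chr11:104968525-104968824, minus strand: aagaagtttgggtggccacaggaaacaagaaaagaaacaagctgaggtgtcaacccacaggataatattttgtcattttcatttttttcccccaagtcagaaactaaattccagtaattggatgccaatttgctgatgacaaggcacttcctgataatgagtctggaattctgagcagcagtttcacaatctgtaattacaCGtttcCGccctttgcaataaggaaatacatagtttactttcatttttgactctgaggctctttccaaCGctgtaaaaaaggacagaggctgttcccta
The windows of *CASP2*, *CASP9* and *CASP6* held 35, 30 and 28 CpG dinucleotides, against 6 for *CASP8*, 5 for *CASP14* and 3 for *CASP4*. The median over 35116 RefSeq windows was 14. These are the windows nearest to each start in the counted models. A second *CASP2* window (chr7:143289338-143289637) held 4, as few as those of the silent genes, and *CASP8* was well counted although its 3 windows held 5 or 6, so CpG content did not sort counted from silent members. The GC box GGGCGG, searched on both strands, occurred 9 times in the *CASP9* window, 4 times in that of *CASP2*, 3 times in that of *CASP6* and once each in those of *CASP8* and *CASP4*. It was present in 45.0% of all windows. A p53 half-site matched in the printed *CASP9* window and in the second of the 3 *CASP8* windows, which also held TATAAA. The start of that *CASP8* window lies 24592 bases from the counted start. No other window of a member matched, that of *CASP6* included, and *CASP1* and *CASP10* had no window to search. Of all windows, 6.63% held the half-site and 11.5% held TATAAA on either strand. These matches describe letters only, since the counts carry no data on binding.

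Total counts were 28537837 to 99074175 per library. TH588 replicate A was the shallowest, and *SNORD3A*, a small nucleolar RNA, made up 21.94% of that library and 7.68% to 12.95% of the others. Of 10 marker genes of epithelial ovarian cancer cells, only *EPCAM* and *KRT18* were counted highly enough to test, both rose, and *PAX8* and *KRT7* had at most 2 counts in any library, so most of these markers were at or near 0. Of 10 white blood cell markers, *CD14* and *CSF1R* were tested. The summed level of the list was 0.329 to 0.598 CPM with DMSO and 1.01 to 1.3 CPM with TH588.

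Of the 8 members, 5 had enough counts to be tested between treatments, and 3 (*CASP1*, *CASP4* and *CASP14*) did not. Values are normalized counts scaled to a common library total (CPM, scaled with TMM factors) and changes are log2 fold changes (log2FC) of TH588 over DMSO, each with its standard error (SE) where given, by edgeR's quasi-likelihood test. Each adjusted p is by the Benjamini-Hochberg method over all 15844 genes tested, with a threshold of 0.05. All 5 passed, against 49.6% of all genes tested, and none of the 5 had overlapping groups, against 57.7% of all genes without overlap. *CASP8*, *CASP9*, *CASP6* and *CASP10* were higher with TH588 (24.2% of all genes were called higher) and *CASP2* was lower (25.3% of all genes were called lower). *CASP10* reached the test only through its TH588 libraries, so its call is bound up with the filter. In bulk RNA, fewer cells with a transcript and less of it per cell cannot be told apart.

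**Figure D1:**
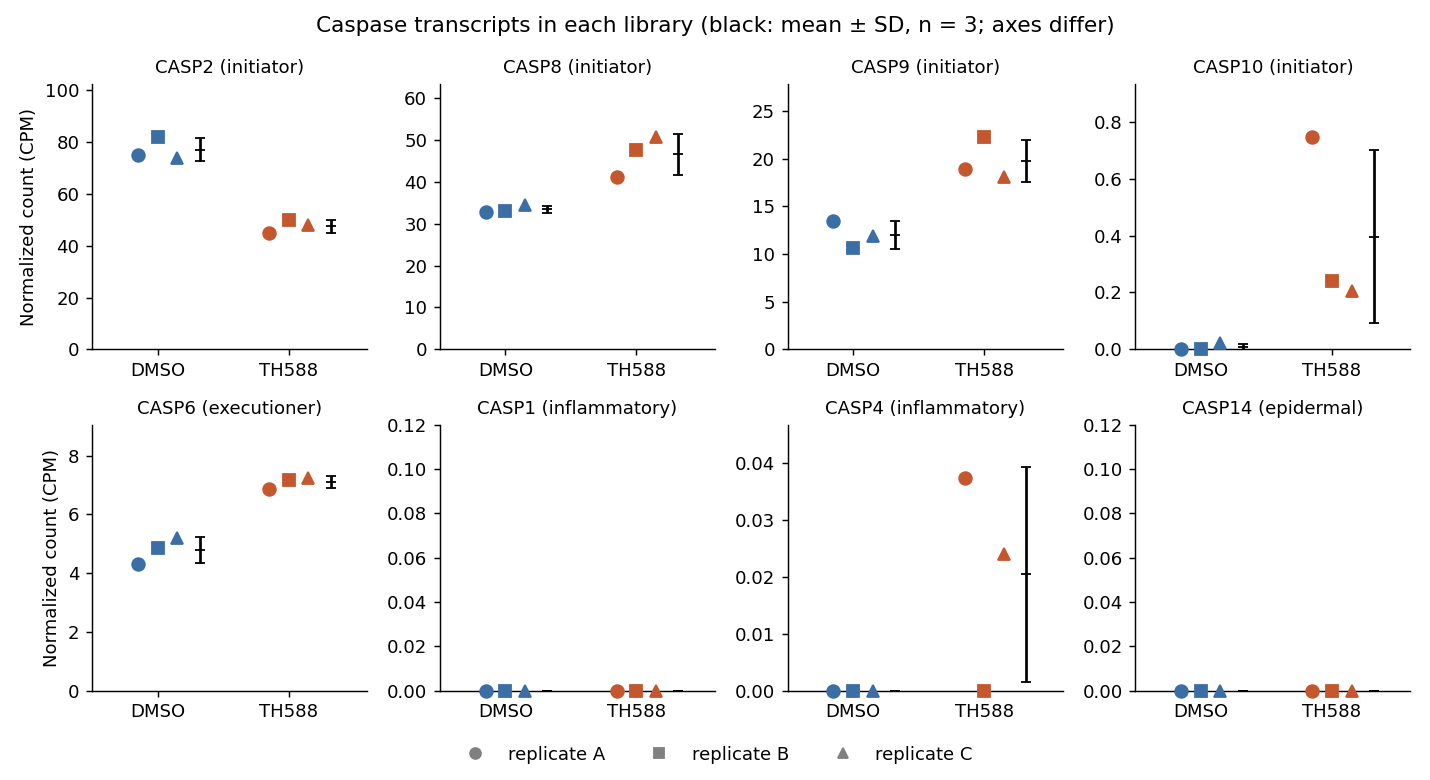
Normalized counts (CPM, vertical axes that start at 0 and differ between panels) of the 8 caspases in the 3 DMSO and 3 TH588 libraries, with a symbol for each replicate letter and the mean ± SD in black. CASP2 lies between 73.7 and 82.0 CPM with DMSO and between 44.8 and 49.8 CPM with TH588, CASP8, CASP9 and CASP6 lie higher with TH588 without overlap, and CASP1 and CASP14 are at 0 throughout.

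Among the initiators, *CASP2* (ENSG00000106144, chromosome 7, 143288215 to 143307696) was the most abundant with DMSO and the only member that fell. It was counted at 75.1, 82.0 and 73.7 CPM in DMSO A, B and C, against 44.8, 49.8 and 48.0 CPM in TH588 A, B and C. The highest TH588 library lay well under the lowest DMSO library. The mean went from 77.0 ± 4.44 to 47.5 ± 2.55 CPM (mean ± SD, n = 3), a log2FC of -0.69 (SE 0.08, edgeR adjusted p = 2.17e-05), or 0.618 times the DMSO level with a 95% interval of 0.547 to 0.699. No other counted gene shares its exons.

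*CASP8* (ENSG00000064012, chromosome 2, 201233443 to 201287711), the initiator at death receptors, was at 32.7, 33.1 and 34.4 CPM with DMSO and at 41.2, 47.6 and 50.7 CPM with TH588. The DMSO libraries were close together, while the TH588 libraries were spread and all higher. Its mean rose from 33.4 ± 0.911 to 46.5 ± 4.86 CPM (mean ± SD, n = 3), a log2FC of 0.48 (SE 0.09, edgeR adjusted p = 0.000847), which is 1.4-fold with a 95% interval of 1.22 to 1.6.

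*CASP9* (ENSG00000132906, chromosome 1, 15490832 to 15526534), the initiator of the apoptosome, was at 13.5, 10.6 and 11.9 CPM with DMSO and at 18.9, 22.3 and 18.1 CPM with TH588. Replicate B was the lowest of its group with DMSO and the highest with TH588. The mean rose from 12.0 ± 1.47 to 19.8 ± 2.23 CPM (mean ± SD, n = 3), a log2FC of 0.72 (SE 0.12, edgeR adjusted p = 0.000405), or 1.65-fold with a 95% interval of 1.37 to 1.99. Exons of *CELA2B* on the opposite strand cover 2.01% of its exon bases. *CELA2B* itself was counted at means of 0.383 and 0.971 CPM, and the library kit does not mark strand, so reads of overlapping genes cannot be told apart.

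*CASP10* (ENSG00000003400, chromosome 2, 201182881 to 201229406), the paralog of *CASP8* beside it on the chromosome, was barely present with DMSO. It had 0, 0 and 2 counts in DMSO A, B and C, against 20, 26 and 17 counts in TH588 A, B and C. Scaled to library size, the TH588 libraries were at 0.747, 0.239 and 0.204 CPM, and the value of replicate A, the shallowest library, stood apart. Over each group, 63 counts with TH588 stood against 2 with DMSO, a ratio of 37.2 per TMM-scaled library size, with an exact 95% interval of 9.87 to 314.0 that covers counting error only. The fitted log2FC was 5.27 (SE 1.0, edgeR adjusted p = 0.000861). It was 4.64 without TH588 replicate A and 7.78 without DMSO replicate C, where only libraries at 0 remained in the DMSO arm, and it passed the threshold in both cases. Its mean level over the 6 libraries was at percentile 1.53 of tested genes per exon length. Some other transcripts near 0 were also higher with TH588, while others were not. The 400 olfactory receptor genes summed to 9.03 to 10.75 CPM of all counts with DMSO and 15.69 to 17.70 CPM with TH588, and 4998 to 5087 protein-coding genes were at 0 with DMSO against 3900 to 4934 with TH588. The olfactory sum rose by a far smaller factor than *CASP10*, and the part of this shift in the *CASP10* counts was not tested.

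*CASP6* (ENSG00000138794, chromosome 4, 109688622 to 109703583), the executioner that cuts lamins, was at 4.32, 4.85 and 5.19 CPM with DMSO and at 6.87, 7.18 and 7.24 CPM with TH588. Both groups were tight and the gap between them was wider than either. Its mean rose from 4.79 ± 0.438 to 7.10 ± 0.195 CPM (mean ± SD, n = 3), a log2FC of 0.57 (SE 0.12, edgeR adjusted p = 0.00223), or 1.48-fold with a 95% interval of 1.23 to 1.79. Exons of *MCUB* on the opposite strand cover 5.4% of its exon bases. *MCUB* was counted at means of 19.9 CPM with DMSO and 12.7 CPM with TH588, above *CASP6* in both, and fell (log2FC -0.66, edgeR adjusted p = 0.00104). The part of shared reads in the *CASP6* values was not tested.

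The inflammatory members were all but silent. *CASP1* (ENSG00000137752, chromosome 11, 105025443 to 105035250), which matures interleukin-1 beta, had 0 counts in every library. *CASP4* (ENSG00000196954, chromosome 11, 104942866 to 104969436), a sensor of bacterial lipopolysaccharide inside cells, had 0 counts in the 3 DMSO libraries and 1, 0 and 2 counts in TH588 replicates A, B and C. *CASP14* (ENSG00000105141, chromosome 19, 15049384 to 15058293), the epidermal member, had 0 counts in every library. A count of 0 allows up to 3 counts, that is 0.0276 CPM in TH588 B, which was sequenced deepest, and 0.112 CPM in the shallowest, TH588 A. No fold change is given for the 3 genes, since each group was at or under that limit. Such silence is not rare, since 2961 of 19773 protein-coding genes (15%) had 0 counts in all 6 libraries.

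Compared per kilobase of exon (RPKM, with the merged exon length of each gene in the deposited counts), the order of the members changed with treatment. With DMSO, *CASP2* stood first at 9.60 ± 0.554 RPKM, followed by *CASP8* at 4.61 ± 0.126 RPKM (mean ± SD, n = 3). *CASP6* at 2.46 ± 0.225 RPKM and *CASP9* at 2.28 ± 0.278 RPKM came next and overlapped each other. With TH588, *CASP8* at 6.42 ± 0.670 RPKM and *CASP2* at 5.93 ± 0.318 RPKM overlapped (mean ± SD, n = 3). So did *CASP9* at 3.75 ± 0.422 RPKM and *CASP6* at 3.65 ± 0.1 RPKM. *CASP10* followed far below at 0.0522 ± 0.0400 RPKM. The level summed over the 8 genes overlapped between treatments, at 18.9 ± 0.320 RPKM with DMSO and 19.8 ± 1.17 RPKM with TH588 (mean ± SD, n = 3), with TH588 replicate A at 18.5 RPKM the lowest of the 6 libraries. Within that sum, the share of *CASP2* went from 50.6% ± 2.19 to 29.9% ± 0.257. The share of *CASP8* went from 24.3% ± 0.764 to 32.4% ± 2.06, that of *CASP9* from 12.0% ± 1.66 to 18.9% ± 1.72, and that of *CASP6* from 13.0% ± 1.12 to 18.5% ± 0.658 (mean ± SD, n = 3). Isoforms were not separated by the counting, and merged exons of unlike isoforms lengthen a gene on paper.

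**Figure D2:**
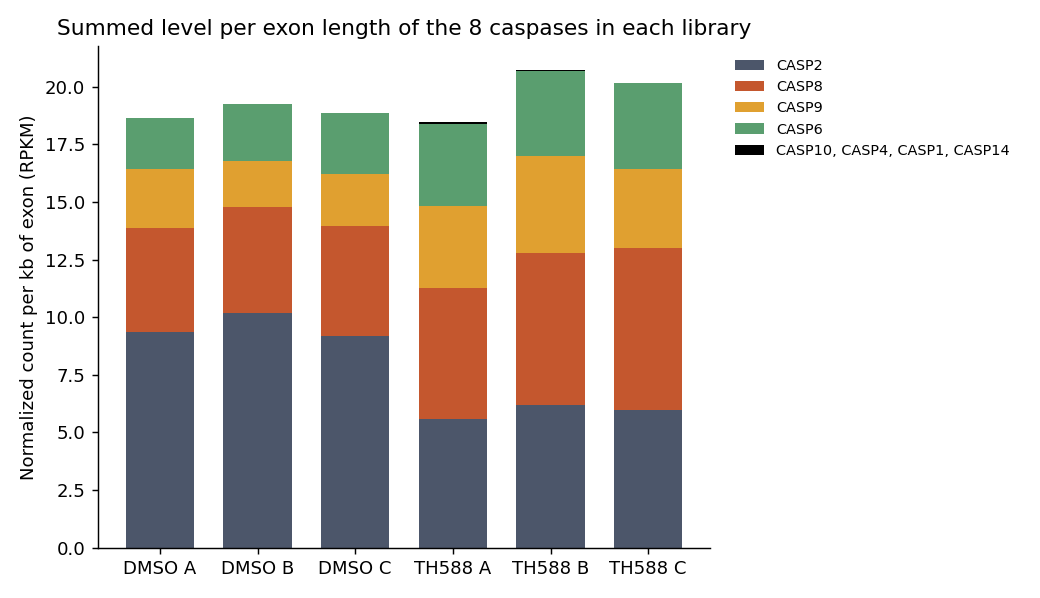
Normalized count per kilobase of exon (RPKM, vertical axis from 0) summed over the 8 caspases in each of the 6 libraries, with a colour for each of CASP2, CASP8, CASP9 and CASP6 and black for the other members together. The bars reach 18.5 to 20.7 RPKM, and the CASP2 segment takes 48.7% to 53% of the bar with DMSO and 29.7% to 30.2% with TH588.

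Ratios of 2 members within a library do not depend on how libraries are scaled. Counts of *CASP8* per count of *CASP2* were 0.435, 0.403 and 0.467 in DMSO A, B and C, against 0.920, 0.956 and 1.06 in TH588 A, B and C. The transcripts thus went from an excess of *CASP2* reads to near parity in every treated library. The mean difference in log2 ratio was 1.17 (SE 0.09). The ratio of *CASP9* to *CASP2* shifted by 1.42 (SE 0.16) and that of *CASP6* to *CASP2* by 1.27 (SE 0.10) on the same scale, also without overlap. For each of the 3 ratios the exact two-sided permutation test gave p = 0.1, the smallest that 3 libraries against 3 allow, and 0.16 after Benjamini-Hochberg adjustment over 8 ratios. Among *CASP8*, *CASP9* and *CASP6*, which all rose, the ratios overlapped between treatments. The log2 ratio shifted by 0.25 (SE 0.17, exact permutation p = 0.2) for *CASP9* to *CASP8*, by 0.10 (SE 0.09, exact permutation p = 0.4) for *CASP6* to *CASP8* and by 0.15 (SE 0.19, exact permutation p = 0.5) for *CASP9* to *CASP6*, with adjusted values of 0.267, 0.457 and 0.5. With 3 libraries against 3 no ratio could reach 0.05, so these tests cannot tell equal from unequal rises. *CASP10* went from 0, 0 and 0.621 counts per 1000 counts of *CASP8* with DMSO to 18.1, 5.02 and 4.02 with TH588 (exact permutation p = 0.1, adjusted 0.16), without overlap. The ratio of *CASP4* to *CASP1* could not be formed.

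The 5 changes kept their direction and stayed under the threshold in every alternative run on them. *CASP2* ranged from -0.73 to -0.59 over 15 alternatives, *CASP8* from 0.43 to 0.59, *CASP9* from 0.62 to 0.84 and *CASP6* from 0.52 to 0.68. The largest adjusted p over all of these was 0.00929, for *CASP6* without DMSO replicate A. With library size as the only scaling, the rises of *CASP8* and *CASP6* were at their largest and the fall of *CASP2* at its smallest.

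**Figure D3:**
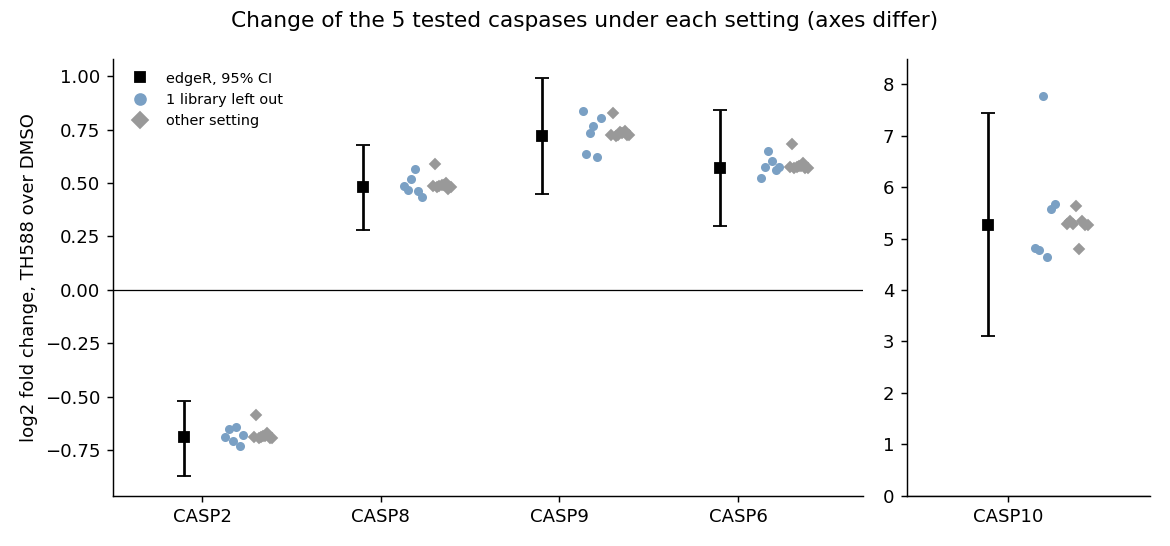
log2 fold change of TH588 over DMSO for the 5 tested caspases, with black squares and 95% intervals from edgeR, blue points with 1 library left out and grey points for other settings (the CASP10 axis differs). CASP2 stays between -0.73 and -0.59, CASP8, CASP9 and CASP6 stay above 0, and CASP10 reaches 7.78 without DMSO replicate C.

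Genes of the platforms that recruit the initiators were then read from lists written for each pathway, beside the background of 49.6% called and a median log2FC of 0.019 over all genes tested. In the death receptor list, 4 of 8 tested genes were higher and 0 lower (median 0.39). *FAS*, a death receptor that engages *CASP8* and *CASP10*, rose from 3.21 ± 0.294 to 16.4 ± 1.78 CPM (mean ± SD, n = 3), a log2FC of 2.35 (edgeR adjusted p = 8.68e-08). *TNFRSF10B*, a receptor for TRAIL, rose from 249.0 ± 8.47 to 576.0 ± 37.4 CPM (mean ± SD, n = 3; log2FC 1.21, edgeR adjusted p = 2.89e-07). *TRADD*, an adaptor at TNF receptors, rose by 1.01 on the log2 scale (edgeR adjusted p = 0.00188). *CFLAR*, which holds *CASP8* in check or tunes it at the receptor, rose from 12.6 ± 1.06 to 19.4 ± 0.987 CPM (mean ± SD, n = 3; log2FC 0.63, edgeR adjusted p = 0.000335). *FADD*, the adaptor that binds *CASP8* directly, did not pass (log2FC 0.05, edgeR adjusted p = 0.815). Exons of an antisense gene cover 54.9% of the exon bases of *FADD*.

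Around *CASP9*, 3 of 7 tested apoptosome genes were higher and 1 was lower (median 0.36). *HTRA2* and *BIRC2*, an antagonist and a member of the inhibitor of apoptosis family, rose by 0.53 and 0.37 on the log2 scale (edgeR adjusted p = 0.000424 and 0.00385). Genes on the opposite strand cover 36.9% of the exon bases of *HTRA2*. *APAF1*, the scaffold that recruits *CASP9*, rose from 26.7 ± 2.94 to 34.1 ± 3.69 CPM (mean ± SD, n = 3; log2FC 0.36, edgeR adjusted p = 0.0149). Its call was lost without DMSO replicate A, DMSO replicate B or TH588 replicate C, with adjusted p-values of 0.0574, 0.0579 and 0.0587. *CYCS*, cytochrome c, fell from 525.0 ± 35.1 to 210.0 ± 53.5 CPM (mean ± SD, n = 3; log2FC -1.32, edgeR adjusted p = 1.22e-05). *XIAP*, the inhibitor that binds *CASP9* directly, did not pass (log2FC -0.06, edgeR adjusted p = 0.628). The *CASP9* platform thus held members that moved in opposite directions.

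Both PIDDosome genes rose while *CASP2* fell. *PIDD1*, the scaffold, went from 12.2 ± 1.87 to 26.5 ± 3.60 CPM, and *CRADD*, the adaptor that binds *CASP2*, from 10.9 ± 0.683 to 16.9 ± 0.677 CPM (mean ± SD, n = 3). Their log2FC values were 1.12 and 0.64 (edgeR adjusted p = 2.43e-05 and 0.000274).

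For the silent inflammatory caspases, 6 of 12 inflammasome genes could be tested, of which 3 were higher and 0 lower (median 0.54). *CARD8*, an inflammasome sensor that acts through *CASP1*, rose from 22.1 ± 0.842 to 32.5 ± 2.74 CPM (mean ± SD, n = 3; log2FC 0.55, edgeR adjusted p = 0.000301). *NLRC4*, a sensor of bacterial proteins, rose by 0.55 on the log2 scale (edgeR adjusted p = 0.0268), a call lost in 4 of the 6 fits that left out a library (adjusted p = 0.0697, 0.0871, 0.0556 and 0.0575 without DMSO replicates A and C and TH588 replicates A and B). *MEFV*, which encodes pyrin, rose from 0.0942 ± 0.0355 to 0.541 ± 0.244 CPM (mean ± SD, n = 3; log2FC 2.43, edgeR adjusted p = 0.00182). It had 7, 11 and 6 counts with DMSO and 22, 44 and 33 with TH588, so that, like *CASP10*, it reached the test only through its TH588 libraries. Some, but not all, other transcripts near 0 were also higher with TH588. With at least 10 counts in every library *MEFV* was not tested and 2 genes of the list were called. *CARD17P* and *CARD18*, neighbours of *CASP1* that resemble its recruitment domain, and the DNA sensor *AIM2* had 0 counts in every library. *CARD16*, another such neighbour, had 1 to 12 counts. Among the white blood cell markers *CD14* was called higher (log2FC 2.30, edgeR adjusted p = 0.00393) from 3, 6 and 8 counts with DMSO and 11, 35 and 23 with TH588, also through its TH588 libraries only. *CSF1R* did not pass (log2FC 0.62, edgeR adjusted p = 0.258) and *CD3E* had 0 counts in every library. The part of such markers in these values was not tested. The sensors *CARD8* and *NLRC4*, but not *AIM2*, were thus counted in a line in which the inflammatory caspases were at or near 0. Of the substrates of these caspases, *IL1B* and *IL18* were tested and 0 of 2 passed (log2FC -0.61 and 1.0, edgeR adjusted p = 0.115 and 0.177). The pore former *GSDMD* had 0 to 13 counts. Without DMSO replicate B, 1 gene of this substrate list was called, and the genes tested can differ in that fit.

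Substrates cut in apoptosis were all tested, with 2 of 12 higher and 5 lower (median -0.21, or -0.10 with library size only, where 6 were called). The lamins, which *CASP6* cuts, moved apart. *LMNA* rose from 79.8 ± 8.17 to 154.0 ± 20.3 CPM (log2FC 0.95, edgeR adjusted p = 1.58e-05) and *LMNB1* fell from 269.0 ± 6.05 to 141.0 ± 15.5 CPM (log2FC -0.93, edgeR adjusted p = 4.97e-06; mean ± SD, n = 3). *GSDME*, a gasdermin opened by apoptotic caspases, rose by 0.64 on the log2 scale (edgeR adjusted p = 0.000202). *PARP1* fell from 1150.0 ± 63.0 to 574.0 ± 58.3 CPM (mean ± SD, n = 3; log2FC -1.0, edgeR adjusted p = 2.87e-06). *BID*, through which *CASP8* reaches the mitochondria, fell by 0.54 on the log2 scale (edgeR adjusted p = 0.00706).

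**Figure D4:**
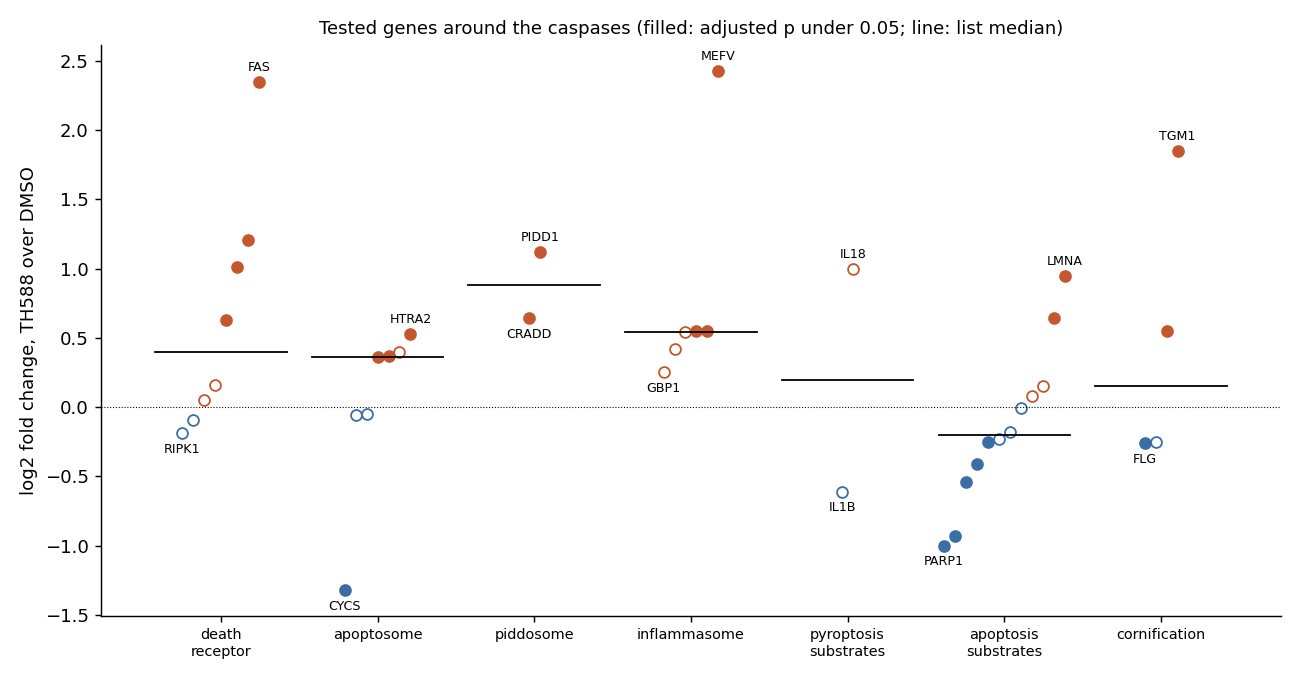
log2 fold change of TH588 over DMSO (vertical axis) for each tested gene of 7 lists around the caspases, filled where the adjusted p was under 0.05, with the median of each list as a line and its highest and lowest gene named. FAS (2.35) and MEFV (2.43) are the highest points, CYCS (-1.32) is the lowest, and both PIDDosome genes lie above 0.

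Of the epidermal genes among which *CASP14* is known to act, 4 of 11 were tested and 5 had 0 counts in every library, among them *KRT1*, *IVL* and *LORICRIN*. *FLG*, filaggrin, whose breakdown in the skin involves *CASP14*, was nonetheless abundant, with 578.0 ± 15.6 CPM after DMSO against 483.0 ± 45.8 CPM after TH588 (mean ± SD, n = 3; log2FC -0.26, edgeR adjusted p = 0.0252). That call did not hold with library size only (adjusted p = 0.343) or in 5 of the 6 fits that left out a library (adjusted p = 0.0539 to 0.0795, the exception being TH588 replicate B). *TGM1*, a transglutaminase, rose by 1.85 and *FLG2* by 0.55 on the log2 scale (edgeR adjusted p = 6.86e-07 and 0.00423). *KRT10*, the partner keratin of *KRT1*, was counted at 10.0 ± 1.43 and 8.38 ± 1.19 CPM (mean ± SD, n = 3) and did not pass (log2FC -0.25, edgeR adjusted p = 0.169). The epidermal list was thus partly counted and partly at 0, and *CASP14* was at 0.

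By position, the genes near each member were set beside the whole data, where 15844 of 58336 counted genes were tested. None of the 17 genes that start within 500 kb of *CASP1*, or of the 16 within 500 kb of *CASP4*, had enough counts to be tested. The starts of both caspases lie 65.8 kb apart, so these windows cover mostly the same stretch. Around *CASP14*, 16 of 48 genes were tested, so this silent caspase lay among counted genes, at a share not far from that of the whole data. *CFLAR*, *CASP10* and *CASP8* follow each other on chromosome 2, with 66.8 kb and 50.6 kb between successive starts, and all 3 rose. Of the 17 genes tested within 500 kb of *CASP8*, 3 were higher and 6 were lower (median -0.11). Over all genes tested, 24.2% were called higher and 25.3% lower. *CASP10* and *CFLAR* are among the 3, and *CASP10* reached the test only through its TH588 libraries. *DNAJC16* starts 0.279 kb from *CASP9*, measured between the outer ends of the counted models. The RefSeq starts of *CASP9* lie 1744 and 2319 bases inside its counted end, and so farther from *DNAJC16*. *DNAJC16* did not pass (log2FC 0.11, SE 0.09, edgeR adjusted p = 0.328). It was singled out for its distance after its value was seen. Counts of *CASP9* per count of *DNAJC16* were 0.465, 0.337 and 0.383 with DMSO and 0.589, 0.713 and 0.516 with TH588, without overlap (log2 difference 0.62, SE 0.19, exact permutation p = 0.1, the smallest possible, and 0.16 adjusted over 8 ratios).

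**Figure D5:**
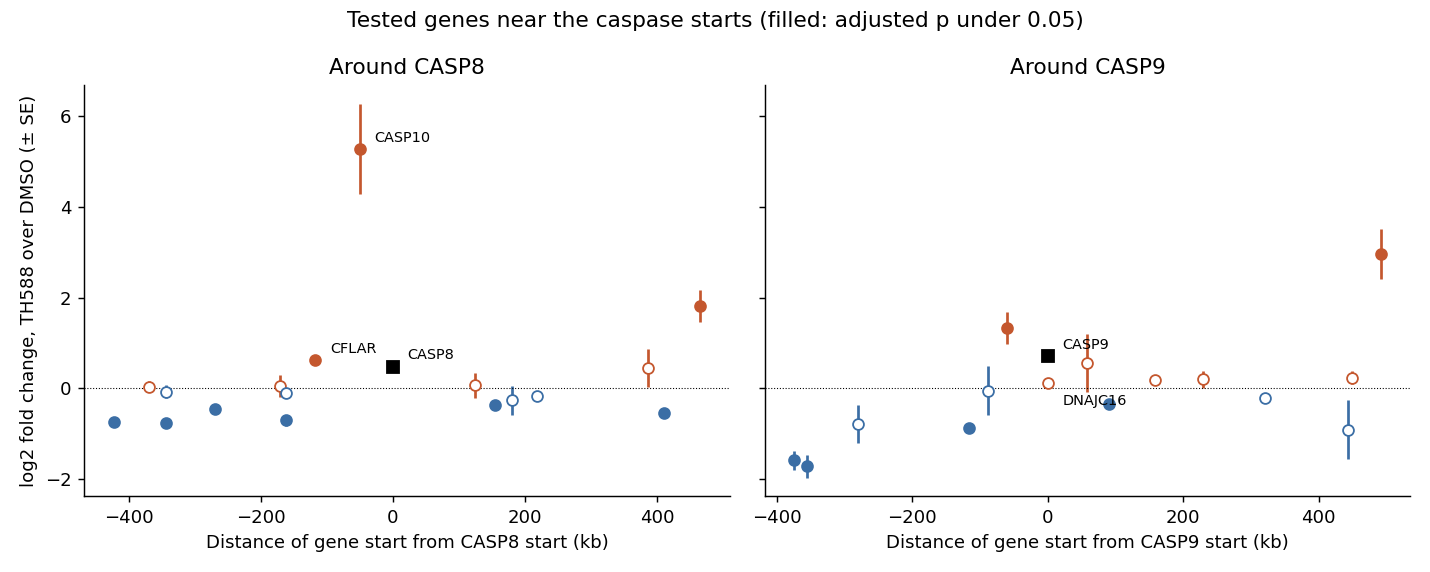
log2 fold change of TH588 over DMSO (± standard error) of tested genes against the distance of their start from that of CASP8 (left) or CASP9 (right), in kb, filled where the adjusted p was under 0.05. Starts are the outer ends of the counted models. CASP10 (5.27), CFLAR (0.63) and CASP8 (0.48, black square) lie above 0, where the 17 genes tested around CASP8 have a median of -0.11, and DNAJC16 (0.11) lies beside CASP9 (0.72, black square).

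Transcripts most like a member were sought by the distance between mean-centred log2 CPM profiles over the 6 libraries, among the 11861 candidates whose mean log2 CPM was 0 or more, and for *CASP10* and *CASP9*, the 2 members with the largest fitted change. *CASP9* (0.72) led *CASP2* (-0.69) by little, and *CASP2* changed more without DMSO replicate B (-0.65 against 0.64) or without TH588 replicate B (-0.73 against 0.62). For *CASP10* they were *LIF* (distance 1.01), *PLA2G4C* (1.15) and *GABARAPL1* (1.29), with log2FC values of 3.62, 3.75 and 3.17. For *CASP9* they were *MAPK8IP2* (0.0989), *KIF3C* (0.103) and *NOTCH3* (0.105), with log2FC values of 0.70, 0.71 and 0.71. All of these profiles share the same 6 libraries, so the distances are a description. *CASP10* itself had a mean log2 CPM of -2.6, under the limit set for the candidates. With 0, 0 and 2 counts, its DMSO values in that profile rest largely on the constant added before the logarithm.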

How the data were processed

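RNA from 3 DMSO and 3 TH588 replicates of A2780 cells was sequenced after TruSeq library preparation. The authors aligned reads to GRCh38 with TopHat and counted them per gene with featureCounts 1.4.6, as their methods and processing notes state, and deposited raw counts. The strand setting and the treatment of reads that match several genes are not given in the sources used here. Identifiers were matched to symbols for 57754 of 58336 genes.

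Counts were filtered with edgeR's default, normalized with TMM and compared with the quasi-likelihood test of edgeR 4.0.16 in R 4.3.3, with Benjamini-Hochberg adjustment. Standard errors are the log2 fold change over the square root of F. The procedure was tested on simulated data. The alternatives used DESeq2 1.42.0, limma 3.58.1 (voom), other scalings and filters, a replicate block and each library left out. Replicates differed by more than sampling noise (chi-square per degree of freedom 25.2 to 179.9), so each counted as 1. The 8 members, the 7 pathway lists and the 2 marker lists were chosen with earlier results of these data known. Named list genes are up to 3 called rises and 3 called falls per list without overlap between groups and with at least 10 counts in each library of the higher group, plus *CFLAR*, *CARD16*, *CARD17P* and *CARD18*. The same rule applied to the marker lists gives *CD14*, *EPCAM* and *KRT18*. *FADD*, *XIAP*, *GSDMD*, *IL1B*, *IL18*, *AIM2*, *CD3E*, *CSF1R*, *KRT1*, *KRT10*, *IVL*, *LORICRIN*, *PAX8*, *KRT7*, *DNAJC16*, *CELA2B*, *MCUB* and *SNORD3A* were named after their values were seen. Start windows are from RefSeq.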

Additional observations from a re-analysis of the deposited data

How the results depend on the processing

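Of the 5 tested caspases, each kept its direction and its call under every alternative that gave a value, and a minimum of 10 counts in every library removed *CASP10*, so that 4 were called there. The count of all genes called was 5831 at an adjusted p under 0.01 and 6805 to 7914 with 1 library left out. Scaling by library size alone shifted the middle of all tested changes from 0.019 to 0.126 (log2) and the share of called genes that were higher from 48.9% to 60.4%. Replicate letters did not pair the samples (correlations of same-letter deviations -0.07, -0.08 and 0), and with a replicate block 7195 genes and all 5 caspases were called. Among the lists, the number of pyroptosis substrates called was 0 to 1 with 1 library left out, the 1 being without DMSO replicate B. For the apoptosome list the median was 0.112 without DMSO replicate A. That of the cornification list was 0.072 without TH588 replicate C and 1.21 with no filter, and that of the death receptor list 0.829 with no filter. For the pyroptosis substrates it was 1.554 without DMSO replicate B. With at least 10 counts in every library it was -0.583, the value of *IL1B* alone, since *IL18* did not reach that minimum. Each median covers the list genes that passed the filter of its setting, so the genes can differ between settings. Apoptosis substrates had a median of -0.103 with library size only. Calls of *APAF1*, *NLRC4* and *FLG* were lost in 16 single-gene comparisons and 0 directions reversed. Apart from the genes that each setting let through, the causes were not tested. Depth limits *CASP1*, *CASP4*, *CASP10* and *CASP14*, most of all in TH588 replicate A. The planned log ratio of *CASP8* to *CASP10* could not be formed and was replaced by a linear one. That ratio and the within-library ratios were chosen after seeing the data.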
